A study of Mus musculus with 12 samples.

Results

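Messenger RNA of 10 genes of the transforming growth factor β (TGF-β) superfamily was followed in subcutaneous mouse lung tumors with and without knockdown of *Filip1l*. The genes were chosen by name and role, with earlier results of these data known. They are the TGF-β ligands *Tgfb1*, *Tgfb2* and *Tgfb3*, the activin subunit gene *Inhba*, the BMP ligands *Bmp2*, *Bmp4* and *Bmp7*, the secreted BMP antagonist *Grem1*, and the response genes *Id1* and *Smad7*. All 10 were found among the 15687 genes analysed. The study asked what loss of FILIP1L does to tumors in mice with an intact immune system.

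Both groups came from the mouse lung cancer line mTc11. The CTL cells, given the genotype WT in the labels, carried a scrambled short hairpin RNA (shControl), and the *Filip1l*-knockdown cells (KD, genotype Filip1l KD) carried a hairpin against *Filip1l*. Hairpins were delivered by lentivirus. Of each, 1000000 cells in Matrigel were injected under the skin of 8 week-old male C57BL6/J mice, and the tumors were frozen after 24 days. There were 6 tumors a group, with 1 RNA library each. Both hairpins were carried by the cancer cells alone, and the blood vessels, fibroblasts and immune cells of the host did not carry them. Values are read counts per gene divided by the size factor of the tumor (normalized counts). They compare 1 gene between tumors and are not corrected for gene length.

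TGF-β and BMP ligands are secreted dimers that bind pairs of serine/threonine kinase receptors, which phosphorylate Smad proteins that carry the signal to the nucleus. TGF-βs and activins act through Smad2 and Smad3, and BMPs through Smad1, Smad5 and Smad9. Gremlin 1, noggin and follistatins bind ligands outside the cell, and Smad6 and Smad7 block the receptors from within. In tumors these factors are known for growth arrest of epithelial cells, matrix production by fibroblasts and restraint of immune cells, and the *Id* genes are classic direct targets of BMP signals.

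Depth was alike in the groups apart from CTL replicate 5, with 17834745 to 29502069 reads on listed genes in CTL tumors and 25460564 to 32419578 in KD tumors. CTL replicate 5 had the 17834745 reads, and the next lowest CTL tumor had 25998164. *Filip1l* had 1983 to 2542 normalized counts in CTL tumors and 1670 to 2184 in KD tumors, so the ranges overlapped and the KD mean was 83.2% of the CTL mean (log2 fold change -0.26, SE 0.07, adjusted p = 0.00998 by limma). These are values of messenger RNA from whole tumors, which include host cells without a hairpin. For the protein, the study reported less FILIP1L in the knockdown cells by immunoblot and in knockdown tumors by immunohistochemistry. KD replicate 1 stood apart. Its mean Euclidean distance to the other tumors of its group, over the log2 values of all genes, was 93.9, against 77.0 to 81.0 for the other KD tumors. CTL replicate 5, the tumor with the fewest reads, had 81.8, against 68.0 to 74.3 for the other CTL tumors. The part of depth in this distance was not tested. Of the lung epithelium markers, *Nkx2-1* was listed at 0.947 to 37.3 normalized counts in CTL tumors and 4.90 to 90.6 in KD tumors, *Sftpc* was at 0 in the lowest tumor of both groups and at most 60.5, and *Scgb1a1* was not among the genes analysed here. The other markers of the list were *Sftpb*, at 0.947 to 94.1 and 17.6 to 760 normalized counts, and *Sftpd*, at 832 to 2408 and 1566 to 2940. The general epithelial keratin gene *Krt8* had 47665 to 65496 and 71618 to 146922.

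The base sequences upstream of 4 of the genes that were lower together in KD tumors are printed here, so that their composition can be set beside the values that follow. Each holds the 250 bases before the RefSeq transcription start on GRCm38.p6, read 5′ to 3′ on the strand of the gene. The windows were chr2:113758649-113758898 (- strand) for *Grem1*, chr14:46390670-46390919 (- strand) for *Bmp4*, chr13:16011601-16011850 (+ strand) for *Inhba* and chr1:186705990-186706239 (- strand) for *Tgfb2*. Capitals mark matches on either strand to a Smad box (CAGAC), a GC-rich Smad motif (GGCGCC) or an AP-1 motif (TGANTCA). No match overlapped another.
Grem1: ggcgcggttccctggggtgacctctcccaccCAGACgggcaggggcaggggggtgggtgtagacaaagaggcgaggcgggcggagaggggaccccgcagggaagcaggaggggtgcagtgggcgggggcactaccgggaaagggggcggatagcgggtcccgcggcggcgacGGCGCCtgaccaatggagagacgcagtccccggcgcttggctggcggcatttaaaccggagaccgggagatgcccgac
Bmp4: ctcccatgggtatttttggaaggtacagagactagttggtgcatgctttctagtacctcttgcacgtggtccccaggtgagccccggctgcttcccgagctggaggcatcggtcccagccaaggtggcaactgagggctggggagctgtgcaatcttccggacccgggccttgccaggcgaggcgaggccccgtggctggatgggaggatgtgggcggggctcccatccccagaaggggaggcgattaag
Inhba: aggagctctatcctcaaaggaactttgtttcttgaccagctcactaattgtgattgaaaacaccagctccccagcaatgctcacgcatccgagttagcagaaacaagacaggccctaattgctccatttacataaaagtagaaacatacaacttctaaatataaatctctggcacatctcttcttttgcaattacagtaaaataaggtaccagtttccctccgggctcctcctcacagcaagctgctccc
Tgfb2: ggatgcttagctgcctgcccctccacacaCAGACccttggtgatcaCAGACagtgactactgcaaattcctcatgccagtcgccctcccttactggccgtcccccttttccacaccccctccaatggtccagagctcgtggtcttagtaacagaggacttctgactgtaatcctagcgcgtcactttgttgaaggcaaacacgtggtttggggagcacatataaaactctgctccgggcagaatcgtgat

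Among these and the *Tgfb1* window, the only other of the 10 genes with an entry in the promoter table used here, the Smad box began at positions -221 and -204 from the start of *Tgfb2* and at -219 from that of *Grem1*, which also held the GC-rich motif at -78. No match to any of the 3 motifs was found in the windows of *Tgfb1*, *Bmp4* and *Inhba*. Of 32851 promoter windows of the same length, 42.2% held the Smad box, 9.59% the GC-rich motif and 6.75% the AP-1 motif, so a Smad box match is common. The windows differed widely in base composition, from 43.2% G and C in *Inhba* and 53.6% in *Tgfb2* to 63.2% in *Bmp4*, 72.0% in *Grem1* and 75.2% in *Tgfb1*, against a median of 52.4% over all windows.

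In the tumors, 8 of the 10 genes were lower in KD than in CTL tumors at a limma adjusted p under 0.05 (Benjamini-Hochberg over all genes), 0 were higher, and *Bmp2* and *Id1* were not called. Over all 15687 genes 20.7% were called lower and 21.1% higher. *Inhba*, *Bmp4*, *Bmp7* and *Grem1* also had a log2 fold change below -1, which 3.97% of all genes reached with an adjusted p under 0.05. The 6 KD tumors lay below all 6 CTL tumors for 6 of the genes, *Tgfb1*, *Inhba*, *Bmp4*, *Bmp7*, *Grem1* and *Smad7*, and 10.9% of all genes were separated in this direction (10.6% in the other). The median log2 fold change was -0.69 over the 10 genes and 0.01 over all genes. In whole tumors, fewer cells of a type and less RNA per cell cannot be told apart.

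**Figure D1:**
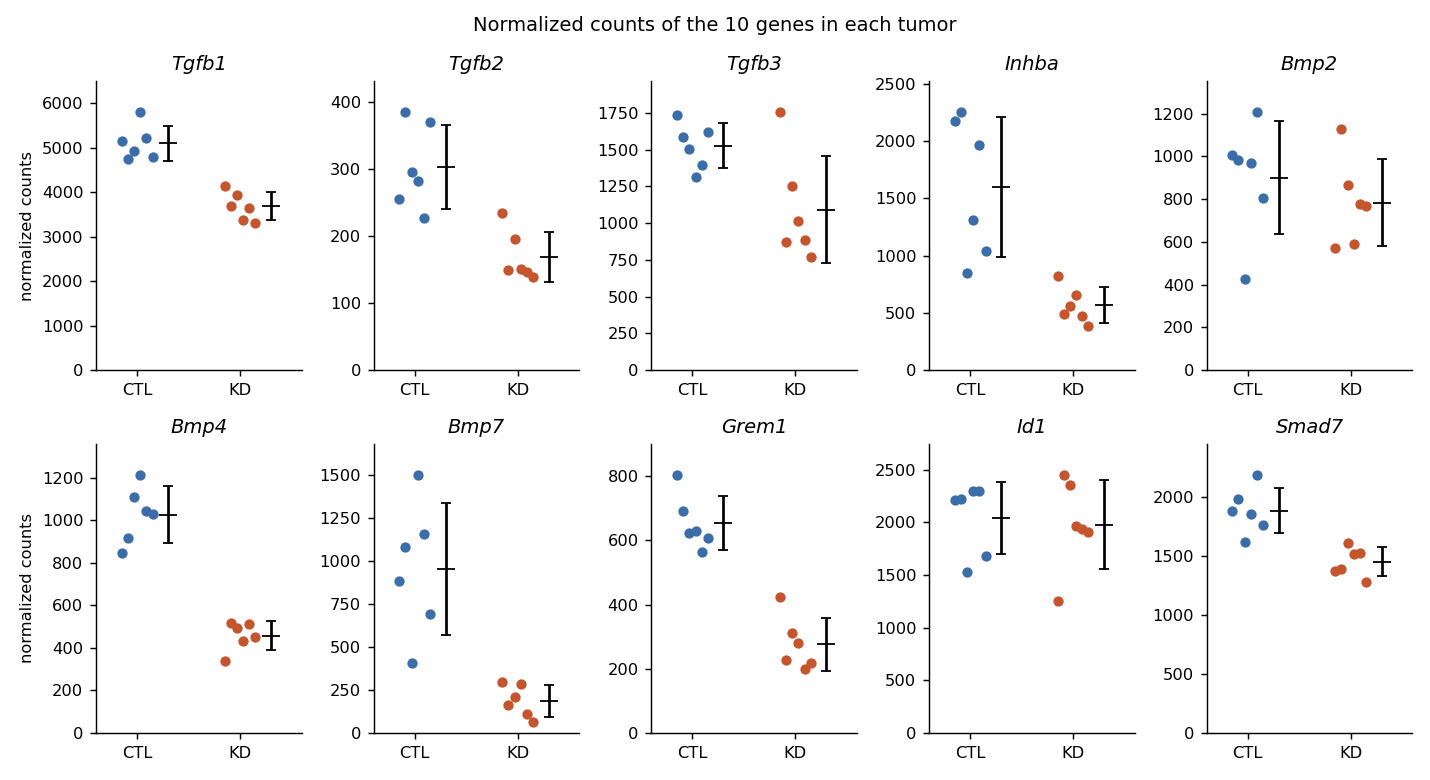
Normalized counts of the 10 genes in each of the 6 CTL (blue) and 6 KD (orange) tumors, on axes that start at 0, with the mean and SD beside the points. Both groups are apart for *Tgfb1*, *Inhba*, *Bmp4*, *Bmp7*, *Grem1* and *Smad7*, 1 KD tumor reaches the CTL range for *Tgfb2* and *Tgfb3*, and the points of *Bmp2* and *Id1* overlap.

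*Tgfb1* (ENSMUSG00000002603, chr7:25687002-25705077, + strand, GRCm38), the most widely expressed of the TGF-β ligands and the main form made by immune cells, had 4747 to 5808 normalized counts in CTL tumors (median 5033) and 3309 to 4134 in KD tumors (median 3672). The highest KD tumor lay below the lowest CTL tumor. The means were 5105 ± 391 (SD, n = 6) and 3684 ± 316 (SD, n = 6), a log2 fold change of -0.47 (SE 0.07, adjusted p = 6.62e-05 by limma). The spread within each group was small, with a coefficient of variation of 7.67% in CTL and 8.57% in KD tumors.

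*Tgfb2* (ENSMUSG00000039239, chr1:186622792-186705989, - strand), a ligand that needs the co-receptor betaglycan to bind its receptors well, had 227 to 385 normalized counts in CTL tumors (median 289) and 139 to 234 in KD tumors (median 151). Only KD replicate 1 lay within the CTL range, above CTL replicate 5 and below the other CTL tumors. The log2 fold change was -0.84 (SE 0.16, adjusted p = 0.000808 by limma), from 303 ± 63.0 to 169 ± 37.5 (SD, n = 6 each).

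*Tgfb3* (ENSMUSG00000021253, chr12:86056745-86079041, - strand), known for its part in palate closure and wound repair, had 1317 to 1738 normalized counts in CTL tumors (median 1547) and 770 to 1757 in KD tumors (median 951). KD replicate 1 exceeded all CTL tumors, and the other 5 KD tumors lay below all of them. Over all tumors the log2 fold change was -0.54 (SE 0.16, adjusted p = 0.0168 by limma), and without KD replicate 1 it was -0.68 (adjusted p = 0.000221). Exons of *Tgfb2*, *Tgfb3* and *Bmp4* overlap those of genes on the opposite strand by at most 257 bases, and whether counting used strand is not given in the sources used here.

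*Inhba* (ENSMUSG00000041324, chr13:16011851-16031621, + strand) encodes the βA chain of activin A, which signals through the same Smads as TGF-β. It had 847 to 2253 normalized counts in CTL tumors (median 1638) and 383 to 824 in KD tumors (median 529). All KD tumors lay below all CTL tumors, although CTL replicate 3 came close to KD replicate 1. The mean fell from 1598 ± 609 to 566 ± 156 (SD, n = 6 each), and the log2 fold change was -1.44 (SE 0.25, adjusted p = 0.000351 by limma).

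The BMP ligands differed from each other. *Bmp4* (ENSMUSG00000021835, chr14:46383520-46390669, - strand), a ligand of mesoderm and of lung branching, had 843 to 1213 normalized counts in CTL tumors (median 1037) and 339 to 518 in KD tumors (median 471). The highest KD tumor stayed well below the lowest CTL tumor. The log2 fold change was -1.17 (SE 0.11, adjusted p = 2.47e-06 by limma), and the mean of the KD tumors was 44.6% of that of the CTL tumors. Genes of chromosome 14 had a median log2 fold change of 0.39, and with chromosome medians removed that of *Bmp4* was -1.55 (adjusted p = 2.37e-07).

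*Bmp7* (ENSMUSG00000008999, chr2:172868012-172940321, - strand), a ligand of kidney and skeletal development, changed the most of the 10 genes. Its values were 408 to 1502 normalized counts in CTL tumors (median 983) and 64.6 to 294 in KD tumors (median 184). No KD tumor reached the lowest CTL tumor, replicate 3, even though both groups were widely spread, with coefficients of variation of 40.1% and 49.5%. The log2 fold change was -2.41 (SE 0.37, adjusted p = 0.000142 by limma), which is 5.33-fold lower in KD tumors.

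*Bmp2* (ENSMUSG00000027358, chr2:133552159-133562885, + strand), a ligand of bone and heart development, had 429 to 1207 normalized counts in CTL tumors (median 976) and 573 to 1125 in KD tumors (median 772). CTL replicate 3 was the lowest of all 12 tumors, and the other values of both groups were mixed. The log2 fold change of -0.17 (95% interval -0.65 to 0.31, limma adjusted p = 0.581) left both a moderate decrease and a small increase possible.

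*Grem1* (ENSMUSG00000074934, chr2:113746164-113758646, - strand) encodes gremlin 1, which binds BMP2, BMP4 and BMP7 outside the cell and is made mainly by fibroblasts. It had 565 to 805 normalized counts in CTL tumors (median 627) and 201 to 423 in KD tumors (median 255). Every KD tumor lay below every CTL tumor, KD replicate 1 being the highest of its group. The mean fell from 654 ± 84.9 to 277 ± 82.7 (SD, n = 6 each), and the log2 fold change was -1.28 (SE 0.16, adjusted p = 2.49e-05 by limma). It was -1.41 without KD replicate 1.

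Among the response genes, *Smad7* (ENSMUSG00000025880, chr18:75367529-75395935, + strand), a feedback inhibitor induced by TGF-β, had 1621 to 2187 normalized counts in CTL tumors (median 1870) and 1278 to 1608 in KD tumors (median 1453). The groups did not overlap, but only just, since KD replicate 3 reached almost the level of CTL replicate 3. The log2 fold change was -0.38 (SE 0.08, adjusted p = 0.00123 by limma).

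*Id1* (ENSMUSG00000042745, chr2:152736251-152737410, + strand), an inhibitor of basic helix-loop-helix transcription factors, had 1527 to 2301 normalized counts in CTL tumors (median 2216) and 1248 to 2453 in KD tumors (median 1952). The lowest and the highest of all 12 tumors were both KD tumors, replicates 1 and 2. The log2 fold change was -0.06 (95% interval -0.39 to 0.27, limma adjusted p = 0.801) and turned to 0.07 without KD replicate 1.

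In an exact two-sided permutation test of each gene, *Tgfb1*, *Inhba*, *Bmp4*, *Bmp7*, *Grem1* and *Smad7* gave p = 0.00216, the smallest that 6 tumors against 6 allow, *Tgfb2* gave 0.00433 and *Tgfb3* 0.0260. For *Bmp2* and *Id1* the exact permutation p was 0.530 and 0.766.

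**Figure D2:**
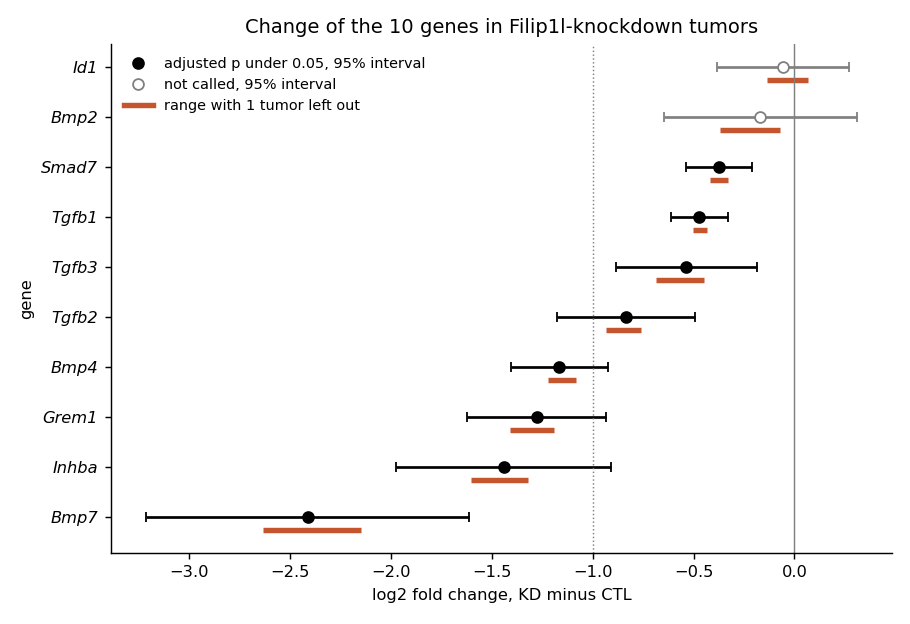
Log2 fold change (KD minus CTL) of the 10 genes with its 95% interval (black, adjusted p under 0.05; grey, not called) and, in orange, the range when 1 tumor is left out. The dotted line marks -1. *Bmp7* lies farthest from 0 at -2.41, and the intervals of *Bmp2* and *Id1* hold 0.

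Ratios of 2 genes within a tumor do not depend on the scaling of that tumor, and 10 of them were compared with exact two-sided permutation tests adjusted over the 10. The ratios were chosen after the values of single genes were seen. Several set a gene called lower against *Bmp2* or *Id1*, which were not called, so their p-values add no independent support to those calls. The ratio of *Bmp4* to *Bmp2* was lower in KD tumors by a log2 difference of -0.997, and that of *Bmp7* to *Bmp2* by -2.24, both with no overlap of the groups (exact permutation adjusted p = 0.0108). The ratio of *Grem1* to *Bmp7* was higher by 1.14 (exact permutation adjusted p = 0.0271). *Grem1* was also lower relative to *Bmp2*, by -1.11 (exact permutation adjusted p = 0.0303, and 0.0519 without any one of KD replicates 2, 3, 5 or 6). For *Bmp7* to *Bmp4* the difference was -1.25 (exact permutation adjusted p = 0.0469), and it was no longer called at 0.05 when any one of CTL replicates 1, 2, 4, 5 and 6 or KD replicates 2, 3, 5 and 6 was left out, or on removal of the chromosome medians (-0.87).

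The ratio of *Grem1* to *Bmp4* was not called to differ (-0.11, exact permutation adjusted p = 0.710). Within the TGF-β ligands none of the 3 ratios was called, with a difference of -0.36 for *Tgfb2* to *Tgfb1* (exact permutation adjusted p = 0.0758, and 0.0397 without CTL replicate 5), 0.30 for *Tgfb3* to *Tgfb2* (0.0711, with 0.0379 without CTL replicate 1 and 0.0495 without CTL replicate 5) and -0.06 for *Tgfb3* to *Tgfb1* (0.710).

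Per kilobase of annotated exon, which allows levels of different genes to be set side by side, *Id1* was highest in CTL tumors at a mean of 1758 normalized counts per kb. *Tgfb1* followed at 1012, and its range was apart from those of both neighbours. *Bmp4* (456), *Tgfb3* (452) and *Smad7* (416) were next and overlapped in turn. *Bmp2* (253), *Inhba* (250), *Bmp7* (237) and *Grem1* (158) formed a second run of overlapping levels per kb, and *Tgfb2* came last at 52.3, apart from the rest.

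In KD tumors *Id1* (1705 normalized counts per kb) and *Tgfb1* (731) kept the first places with ranges apart. *Tgfb3* (323), *Smad7* (320), *Bmp2* (220) and *Bmp4* (204) overlapped in turn, so that *Bmp2* stood above *Bmp4* in mean level per kb, the reverse of the order in CTL tumors. *Inhba* (88.6), *Grem1* (66.7), *Bmp7* (46.4) and *Tgfb2* (29.3) were the lowest and overlapped in turn.

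**Figure D3:**
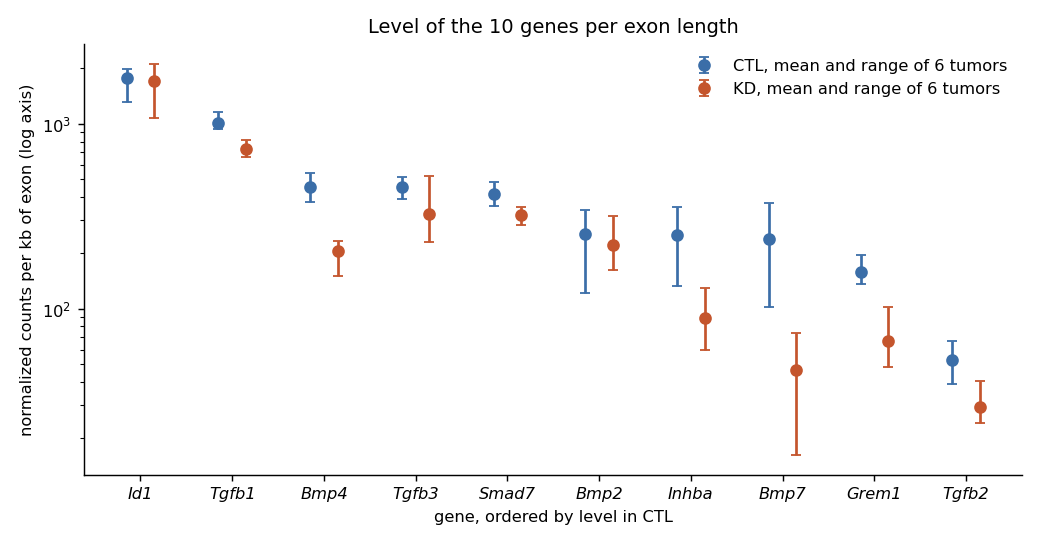
Level per kilobase of exon (normalized counts per kb, log axis) of the 10 genes, in order of the CTL mean. Points are means and bars the range of 6 CTL (blue) and 6 KD (orange) tumors. *Id1* and *Tgfb1* are highest in both groups, and *Bmp7* drops from 237 to 46.4 per kb.

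Deviations of single tumors from their group mean were compared between genes over the 12 tumors, as a description with no test. The pairs share their libraries. Of the 45 pairs among the 10 genes, 32 had a positive Pearson's r, with a median of 0.20. *Tgfb3* and *Grem1* had the highest, r = 0.92 (Spearman's rho 0.86), and it was 0.83 without KD replicates 1 and 6, the 2 tumors farthest out in *Tgfb3*. *Bmp2* and *Id1* had r = 0.80 (rho 0.84), and 0.71 without CTL replicate 3 and KD replicate 1. *Bmp4* and *Grem1* had the lowest, r = -0.76 (rho -0.59), which rested on few tumors, since it was -0.32 without KD replicate 1 and CTL replicate 1.

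*Bmp7*, the ligand with the largest change, had r = 0.17 with *Id1*, which was -0.14 without KD replicate 6 and CTL replicate 3 and 0.62 without KD replicate 1, with 0.93 within the CTL and -0.28 within the KD tumors. With *Id3* it had r = 0.78, which was 0.49 and 0.75 on the same omissions. *Bmp4* had r = 0.48 with *Id1*, and 0.05 without KD replicate 1.

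**Figure D4:**
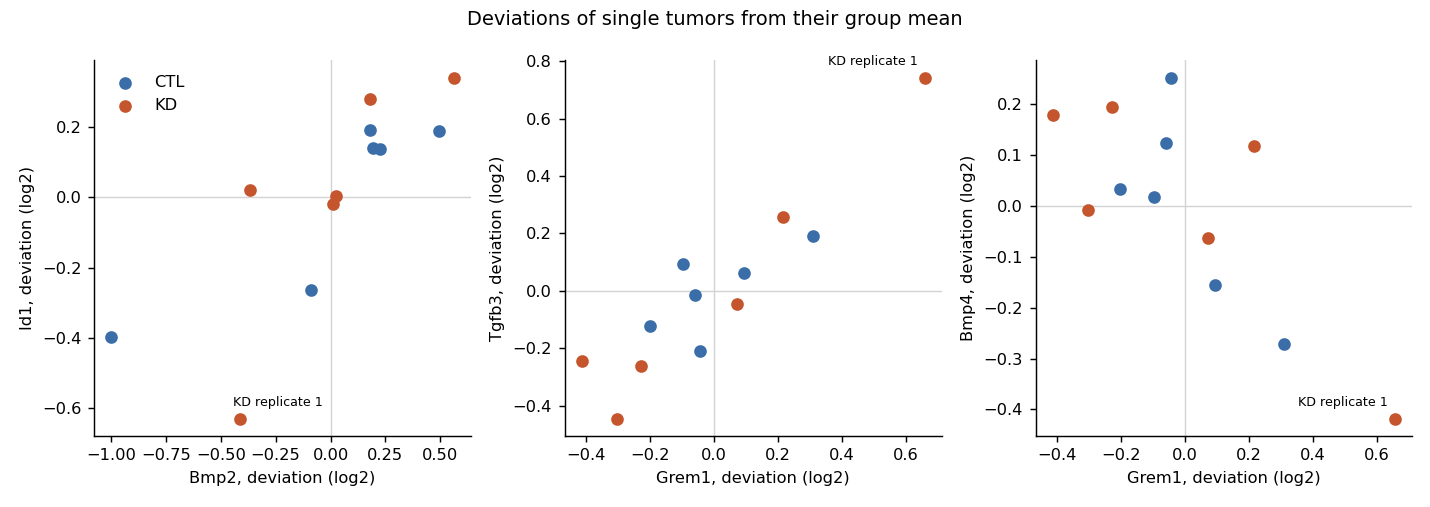
Deviation of each tumor from its group mean (log2 units) for 3 pairs of genes, *Bmp2* and *Id1*, *Grem1* and *Tgfb3*, and *Grem1* and *Bmp4*, in CTL (blue) and KD (orange) tumors. The first and second pair deviate in the same direction (r = 0.80 and 0.92), and KD replicate 1, named in each panel, is the outermost point of the third.

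Of 12887 other genes that averaged 50 or more normalized counts, those most like *Tgfb3* in these deviations were *Sirpa* (r = 0.97), *Mertk* and *Abca1*, and those most like *Grem1* were *Mpdz* (r = 0.97), *Plxdc2* and *Mxra8*. *Bmp7* was most like *Ssx2ip* (r = 0.95), *Medag* and *Pcyt1b*, *Inhba* most like *Dpy19l1* (r = 0.97), *Tpr* and *Itgb1*, and *Bmp4* most like *Lsm12* (r = 0.96) and *Tmem115*. For *Tgfb1* they were *Zdhhc14* (r = 0.87), *Fam43a* and *Tcf7*, and for *Tgfb2* *Calhm2* (r = 0.90), *Cpt1c* and *Hacd4*. *Bmp2* went with *Selenot* (r = 0.94), *Fam210a* and *Cmas*, *Id1* with *Npepps* (r = 0.94), *Capn2* and *Txndc11*, and *Smad7* with *Arhgap39* (r = 0.96), *Jag1* and *Gcnt2*. These are the highest of many values over 12 tumors.

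Of 26 other ligands of the superfamily listed, 12 were among the genes analysed, of which 4 were higher, 1 was lower and 7 were not called at a limma adjusted p under 0.05, with 21.1% called higher and 20.7% lower over all genes. Their median log2 fold change was 0.42, and no test compared them with the ligands above. *Gdf10* (also BMP3B) had 3.79 to 26.9 normalized counts in CTL tumors (median 9.89) and 33.7 to 197 in KD tumors (median 113). No KD tumor overlapped the CTL range, and the log2 fold change was 2.83 (SE 0.49, adjusted p = 0.000376 by limma), or 2.44 with the median of chromosome 14 removed. *Bmp8a* rose from 21.1 ± 9.62 to 51.3 ± 17.3 normalized counts (log2 fold change 1.26, limma adjusted p = 0.00434) and *Gdf15*, a stress-induced cytokine, from 72.8 ± 28.7 to 126 ± 18.6 (0.86, limma adjusted p = 0.00740), while *Gdf11* fell from 140 ± 23.9 to 87.4 ± 18.6 (-0.68, limma adjusted p = 0.00392). *Bmp8b*, at 0 in the lowest CTL tumor, was called at an adjusted p of 0.0448, and this call was lost in 15 of its alternatives.

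Of the secreted antagonists other than *Grem1*, 3 were lower, 1 was higher and 9 were not called of 13 analysed (17 listed, median log2 fold change 0.06), and 20.7% and 21.1% of all genes were called in these directions. *Twsg1*, which helps chordin bind BMPs, fell from 6558 ± 427 to 4492 ± 372 (-0.55, limma adjusted p = 1.26e-05) with groups apart, and *Fstl1*, a follistatin-like protein of fibroblasts, from 11329 ± 1695 to 7336 ± 2559 (-0.68, limma adjusted p = 0.00820). *Nbl1* (DAN) rose from 4667 ± 308 to 6029 ± 690 (0.36, limma adjusted p = 0.00135). Noggin (*Nog*) was scarce, with means of 4.67 and 16.1 normalized counts, and follistatin (*Fst*) had a log2 fold change of -0.26, neither of them called (limma adjusted p = 0.0823 and 0.214). Without KD replicate 1, however, *Fst* was called at -0.40 (adjusted p = 0.0192), and *Nog* was called higher without KD replicate 2 or 6 (adjusted p = 0.0406 and 0.0458) and by edgeR and DESeq2 on recovered reads (adjusted p = 0.0447 and 0.0295).

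Latent TGF-β is stored in the matrix by binding proteins and released by proteases, thrombospondin and integrins. Of 14 genes of this group, all analysed, 8 were called lower and 1 higher, against 20.7% and 21.1% of all genes. The median log2 fold change of the group was -0.35. The storage proteins *Ltbp1*, *Ltbp3* and *Ltbp4* were among the lower genes, and *Ltbp2* was not called (0.36, limma adjusted p = 0.228). *Ltbp1* had 7843 to 9022 normalized counts in CTL tumors (median 8790) and 2980 to 4297 in KD tumors (median 3775). The groups were far apart relative to their spread, and the log2 fold change was -1.21 (SE 0.08, adjusted p = 8.45e-08 by limma). *Ltbp3* (18012 ± 1540 to 9560 ± 1346) and *Ltbp4* (18517 ± 1553 to 9978 ± 2387) both fell by 0.92 on the log2 scale with groups apart (limma adjusted p = 2.84e-06 and 6.54e-05), and with the median of chromosome 19 removed *Ltbp3* was at -0.56.

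*Tll1*, a tolloid protease that cleaves chordin, fell from 416 ± 113 to 94.0 ± 22.7 normalized counts (log2 fold change -2.12, limma adjusted p = 1.81e-06), again with no overlap. *Thbs1*, an activator of latent TGF-β, was at -0.68 (limma adjusted p = 0.00947). *Lrrc32*, which holds latent TGF-β on regulatory T cells and platelets, was at -0.53 (limma adjusted p = 0.0349), a call lost in 8 alternatives.

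Receptors went both ways, with 5 of 15 lower and 5 higher (17 listed, median log2 fold change -0.11). Among all genes, 20.7% were called lower and 21.1% higher. *Tgfbr3*, the gene of betaglycan, had 438 to 637 normalized counts in CTL tumors (median 537) and 129 to 263 in KD tumors (median 146). All KD tumors were below all CTL tumors, and the log2 fold change was -1.65 (SE 0.18, adjusted p = 6.11e-06 by limma). The signalling receptors of TGF-β were lower by less. *Tgfbr1* fell from 3104 ± 389 to 2065 ± 354 (-0.59, limma adjusted p = 0.000802) and *Tgfbr2* from 7217 ± 263 to 5756 ± 402 (-0.33, limma adjusted p = 0.000223).

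The type I receptor *Acvr1* (ALK2), which binds BMP7, fell from 2204 ± 223 to 1487 ± 133 (-0.57, limma adjusted p = 5.31e-05). *Acvrl1* (ALK1), a receptor of blood vessel endothelium, rose from 449 ± 42.0 to 760 ± 106 (0.75, limma adjusted p = 3.21e-05), and the activin receptor *Acvr1b* (ALK4) from 1420 ± 90.5 to 2284 ± 200.2 (0.68, limma adjusted p = 2.39e-06), both with groups apart. *Amhr2*, the receptor of anti-Müllerian hormone, was higher by 0.95 (limma adjusted p = 0.00586). The BMP receptor *Bmpr1a* on chromosome 14 was higher by 0.40 (limma adjusted p = 0.000230), and with chromosome medians removed it was at 0.02 and no longer called (adjusted p = 0.793).

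**Figure D5:**
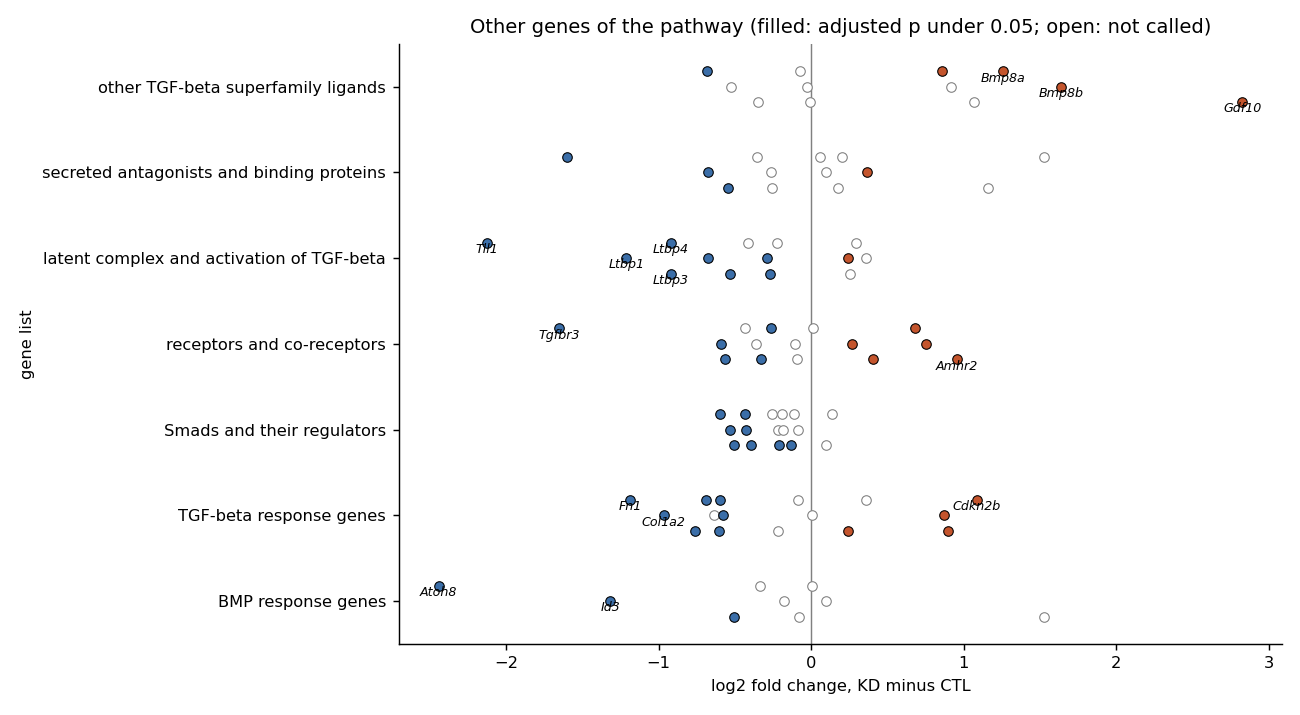
Log2 fold change (KD minus CTL) of the analysed genes of 7 pathway lists, 1 row a list, with filled points for an adjusted p under 0.05 (blue lower, orange higher) and open points for genes not called. Latent complex genes lie mostly below 0, with 8 of 14 called lower, the receptors are split 5 and 5, and *Gdf10* at 2.83 and *Atoh8* at -2.44 are outermost. Among all genes, 20.7% were called lower and 21.1% higher.

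Of 16 Smads and Smad regulators analysed (17 listed), 8 were lower and 0 higher, against 20.7% and 21.1% of all genes. The median log2 fold change of the group was -0.21. *Smad3*, a mediator of TGF-β and activin, fell from 5818 ± 618 to 4290 ± 296 (-0.44, limma adjusted p = 0.000301) and the co-repressor *Tgif1* from 3533 ± 351 to 2327 ± 145 (-0.60, limma adjusted p = 8.42e-06), both with groups apart. *Smad6*, the inhibitory Smad of the BMP branch, fell from 793 ± 113 to 559 ± 85.5 (-0.51, limma adjusted p = 0.00259). *Tgif2*, a related co-repressor, was at -0.53 (limma adjusted p = 0.0318), a call lost in 8 alternatives.

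TGF-β response genes went both ways. Of 16, all analysed, 7 were lower and 4 higher (median log2 fold change -0.40), against 20.7% and 21.1% of all genes. Some of them, such as *Tgif1* and *Ltbp2*, are also counted in lists above. Among the lower genes was that of the matrix protein fibronectin (*Fn1*), at 83913 to 159196 normalized counts in CTL tumors (median 120635) and 31846 to 92640 in KD tumors (median 52147). The groups overlapped by the highest KD tumor, and the log2 fold change was -1.19 (SE 0.22, adjusted p = 0.000725 by limma). *Col1a2* and *Col1a1*, the chains of type I collagen, were at -0.97 and -0.76 (limma adjusted p = 0.00626 and 0.0108), and *Ccn2*, a matricellular protein, fell from 24807 ± 2230 to 15426 ± 1874 (-0.69, limma adjusted p = 3.56e-05). The cell cycle inhibitors *Cdkn2b* (p15) and *Cdkn1a* (p21) were higher, from 214 ± 64.1 to 448 ± 89.9 (1.09, limma adjusted p = 0.000381) and from 2185 ± 261 to 4090 ± 981 (0.87, limma adjusted p = 0.000408).

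Of 9 BMP response genes analysed beside *Id1* (11 listed), 3 were lower and 0 higher, against 20.7% and 21.1% of all genes. The median log2 fold change of the group was -0.18. *Smad6*, 1 of the lower genes, and *Nog* are also counted in lists above. *Atoh8*, a transcription factor induced by BMPs, had 336 to 938 normalized counts in CTL tumors (median 648) and 53.3 to 153 in KD tumors (median 137). *Id3*, a close relative of *Id1*, had 838 to 1837 in CTL tumors (median 1624) and 390 to 768 in KD tumors (median 579). No KD tumor reached the CTL range for either gene, and the log2 fold changes were -2.44 (SE 0.28, adjusted p = 1.17e-05 by limma) and -1.32 (SE 0.21, adjusted p = 0.000192 by limma). *Id2* was at -0.08 (95% interval -0.25 to 0.10, limma adjusted p = 0.475). Within the *Id* family the ratio of *Id3* to *Id1* was lower in KD tumors by a log2 difference of -1.26 (exact permutation adjusted p = 0.0144 over the 10 ratios), and the groups overlapped. This ratio was also chosen after values were seen, with *Id3* called lower and *Id1* not called.

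Markers of several cell types differed between the groups. The counts of called markers below stand against 20.7% of all genes called lower and 21.1% called higher. The summed fibroblast markers ran from 160816 to 262944 normalized counts in the CTL group and from 75099 to 253173 in the KD group, where KD replicate 1 had the highest sum and the other 5 had at most 158480, and 3 of the 8 markers (*Col1a1*, *Col1a2* and *Thy1*) were called lower and 0 higher. Type I and III collagen made up 96.3% to 98.0% of these sums, and *Col1a1* and *Col1a2* are also among the response genes above. The other 5 markers together ran from 3843 to 7390 and from 2510 to 9278. *Pdgfra*, *Lum*, *Fap*, *Col3a1* and *Dcn* were not called over all tumors (limma adjusted p = 0.122, 0.339, 0.596, 0.114 and 0.899), but without KD replicate 1, 7 of the 8 markers were called lower, all except *Dcn* (-0.20, adjusted p = 0.446). That tumor had the highest KD value of 6 of the 10 genes, *Tgfb1*, *Tgfb2*, *Tgfb3*, *Inhba*, *Bmp7* and *Grem1*, and the lowest of 3, *Bmp2*, *Bmp4* and *Id1*. Without it, 8 of the 10 genes were again called lower. Epithelial markers were higher (4 of 5, sums of 135208 to 175847 and 188323 to 352178), as were blood vessel endothelium (5 of 6, 2396 to 3074 and 3073 to 4865), neutrophils (5 of 5, 278 to 352 and 742 to 1153) and skeletal muscle (6 of 7, 1991 to 11316 and 4920 to 79236).

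For macrophages 1 of 7 markers was higher (sums of 15389 to 21711 and 13455 to 24670), and 0 of 5 T cell markers (660 to 1777 and 735 to 1431) and 0 of 6 smooth muscle and pericyte markers (1668 to 2567 and 1870 to 3172) were called. Of 4 adipocyte markers 2 were analysed and 1 was higher (25.6 to 65.8 and 68.5 to 99.9), and of 5 lung epithelium markers 4 were analysed and 1, *Sftpb*, was higher (sums of 834 to 2539 and 1588 to 3157), at a limma adjusted p of 0.0463 that was lost in 11 alternatives. The part of these shifts in the values of the 10 genes was not tested.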

How the data were processed

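Poly(A) RNA libraries of 12 tumors were prepared with a NEBNext Ultra II kit and sequenced as paired reads. Per the submitters' processing notes, reads were trimmed with Trimmomatic 0.36, aligned to mm10 with STAR 2.5.2b and counted per gene with featureCounts of Subread 1.5.2, and the authors divided the counts by DESeq2 size factors. The deposited values are therefore a normalized signal, here called normalized counts. Every value of each tumor was a whole multiple of the smallest step of that tumor (100% within 0.001 read), which was taken as the value of 1 read and gave the reads per tumor. In 3 tumors (CTL replicates 1 and 4 and KD replicate 1) the step was 1.00001, 0.997 and 1.008, within 1% of 1, where a step is hard to tell from unscaled counts. Reads of these tumors are therefore less certain, and edgeR and DESeq2 used the same step. A floor of 3 reads was on average 3.15 normalized counts in CTL and 2.91 in KD tumors, for counting error only, since reads carried no molecular identifiers.

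Log2 values (pseudocount 1, mean of at least 5 normalized counts) went into limma 3.58.1 (R 4.3.3) with a mean-variance trend and Benjamini-Hochberg adjustment over 15687 genes. Genes were called at an adjusted p under 0.05, with an absolute log2 fold change over 1 as a second threshold. Single genes were compared with exact two-sided permutation tests over 924 arrangements. As an alternative added after seeing the data, whole reads were tested with edgeR 4.0.16 and DESeq2 1.42.0. Symbols and positions are from GENCODE vM21 (15655 identifiers found) and promoters from RefSeq (5 of the 10 genes matched). The steps were tested on simulated data. Plots were made in Python 3.11.15 (matplotlib 3.10.9).

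The 10 genes, the pathway and marker lists and the tests were chosen with earlier results of these data known. Named genes are the 10 genes, *Filip1l*, pathway genes past both thresholds (up to 8 a list, mean of at least 20 normalized counts), up to 4 more a list past the adjusted p with the largest change, the 3 genes most like each of the 10, and markers near 0. *Tgfbr2*, *Acvr1*, *Bmpr1a*, *Ccn2*, *Id2*, *Nog*, *Fst*, *Ltbp2* and, of the markers, *Krt8*, *Sftpb*, *Sftpd*, *Thy1*, *Pdgfra*, *Lum*, *Dcn*, *Fap* and *Col3a1* were named after their values were seen, and the 10 ratios were also chosen then. Labels number the tumors as biological replicates. Nothing in the sources states whether each came from its own mouse, so p-values measure the spread between these tumors. The CTL and KD cells were also transduced and selected apart. An effect of *Filip1l* loss and any other difference between these cell populations therefore cannot be told apart here. Median log2 fold changes of whole chromosomes differed, at 0.39 for chromosome 14, -0.35 for chromosome 19 and -0.19 for chromosome 8, and their cause was not tested. Which of the hairpins against *Filip1l* the sequenced tumors carried is not given in the sources used here. Values of some genes of these lists are left out of the text. The pathway lists share some genes, such as *Smad6*, *Tgif1*, *Ltbp2* and *Nog*, which are counted in each list that holds them.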

Additional observations from a re-analysis of the deposited data

Results flagged for a closer look

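Each of 60 genes was looked at in both groups, 120 sets of 6 tumors, for a tumor whose gap to the nearest other exceeded the 95% limit of Dixon's test. Chance alone gives about 1 in 20 such sets for genes picked without their values, and 8 were found. Of the flagged genes, *Tgfbr1* was named for its adjusted p and size of change, and the others after their values were seen. The 8 therefore cannot be set against that rate. *Tgfbr1* was low in CTL replicate 3 at 2362 normalized counts, against 3070 to 3441 in the other CTL tumors. *Acvr1* was low in KD replicate 6 at 1235, against 1468 to 1595 in the other KD tumors. *Ccn2* was low in the same tumor at 11741, against 15353 to 16802. *Fst* was high in KD replicate 1 at 2176, against 1057 to 1405 in the other KD tumors. That tumor was also high in *Ltbp2* (3553, others 1124 to 1809) and in the fibroblast markers *Lum* (2881, others 291 to 535) and *Fap* (333.8, others 82.2 to 147). *Sftpb* was high in CTL replicate 5 at 94.1, against 0.947 to 27.3 in the other CTL tumors. None of the 10 genes of the TGF-β and BMP group had such a tumor.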

How the results depend on the processing

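In 25 alternatives (a filter at a mean of 20 or none, a pseudocount of 0.5 or 8, 2 rescalings, limma without a trend, a replicate block, removal of chromosome medians or of trends with GC content and length, edgeR and DESeq2 on recovered reads, each tumor left out in turn, and CTL replicate 5 and KD replicate 1 left out together), 8 of the 10 genes were called in all. The number past both thresholds was 4, and 4 to 5 over the alternatives. The alternative with no filter could not differ from the main fit, since all 15687 genes passed the filter. All 8 called genes kept a negative change throughout. Neither gene without a call kept its sign in all of them. *Bmp2* was at 0.011 without CTL replicate 5 and KD replicate 1, and *Id1* at 0.11. With 1 tumor left out, *Bmp2* ranged from -0.370 (adjusted p = 0.0798 without CTL replicate 3) to -0.0715 and *Id1* from -0.136 to 0.069. *Dcn* was at -0.27 without CTL replicate 5 and KD replicate 1 and ranged from -0.20 to 0.19 with 1 tumor left out, and *Sftpd* was at -0.045 with chromosome medians removed. The log2 ratio of *Grem1* to *Bmp4* turned to 0.27 with chromosome medians removed and ranged from -0.326 to 0.0076 when 1 tumor was left out. The cause was not tested.

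With 1 tumor left out, 8 of the 10 genes were called each time, *Filip1l* ranged from -0.31 to -0.22, 43 to 48 of the 87 pathway genes (47 with all tumors) and 5889 to 6931 of all genes (6566 with all tumors) were called, and 1513 to 1712 were past both thresholds (1596 with all tumors). edgeR called 6626 genes, 6393 of them shared with limma, and DESeq2 6960, 6530 of them shared.

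Replicate numbers did not pair the tumors, as deviations of same-numbered tumors correlated at -0.28 to 0.08. With the number as a replicate block, 8 of the 10 genes, 47 pathway genes and 5905 of all genes were called. Among the named genes the block ended the calls of *Bmp8b* (adjusted p = 0.0661), *Tgif2* (adjusted p = 0.0660) and *Sftpb* (adjusted p = 0.0830), and *Pdgfra* (adjusted p = 0.0400) and *Col3a1* (adjusted p = 0.0413) were called with it. The median of all genes stayed between -0.0498 and 0.015 in all 25 alternatives. Genes with means near the floor of 3 reads, such as *Bmp8b* and *Nog*, are limited by depth.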
